A study of Mus musculus with 2 samples.

Results

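Enterochromaffin cells of mouse duodenum and of gastrointestinal polyps were picked out of 2 single-cell libraries by their Tph1 and chromogranin transcripts, and 78 of the 11712 barcodes that passed quality limits were such cells. They were 31 of 3252 barcodes in the control library and 47 of 8460 in the polyp library. A barcode was taken when it held at least 500 UMIs (unique molecular identifiers, which count captured transcripts), at least 250 genes and at most 25% mitochondrial UMIs, and also at least 3 UMIs of Chga plus Chgb and at least 2 of Tph1, with Gast and Ghrl each below 1% of its UMIs. The members were thus chosen by the levels of those 5 genes, which are given only as a description.

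Enterochromaffin cells are the endocrine cells of the gut lining that make most of the body's serotonin. Tph1 hydroxylates tryptophan, Ddc decarboxylates the product to serotonin, and the vesicular carrier Slc18a1 loads it into granules whose matrix is built from chromogranins. In the mouse intestine many of these cells also carry the tachykinin precursor Tac1 or the secretin gene Sct, and they sense food, irritants and stretch through ion channels such as Trpa1.

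The WT library came from normal duodenum of WT mice, genotype Lkb1+/+;Myh11-Cre/ERT2, and the polyp library from polyps of Lkb1flox/+;Myh11-Cre/ERT2 mice, labelled Lkb1 Heterozygous. The design text names 3 mice for each. Both groups carry the inducible Cre driven by the promoter of the smooth muscle myosin gene Myh11, so the controls differ in the floxed Lkb1 allele (gene symbol Stk11) and in the tissue taken. The source label reads duodenum for both libraries, and the site of the polyps is not given beyond that. The mice of a library cannot be told apart in the files, so each group was 1 sample, no test between groups was possible, and all intervals below are 95% exact intervals that cover counting error only.

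The label of the cells was checked against marker lists. All 4 smooth muscle markers and all 3 B cell markers were at 0 UMIs in the members of both libraries, and the 6 T cell markers summed to 22.4 CPM (counts of a gene per 1000000 UMIs of the same barcodes) in WT members and 4.94 CPM in polyp members. General epithelial markers summed to 6573 CPM in WT members and 3666 CPM in polyp members. Other classes were present. In WT, at least 3 UMIs of plasma cell markers were in 28 of 31 members, goblet in 27, enterocyte in 25 and Paneth in 13. Paneth markers reached 51914 CPM in 1 WT member. In the polyp library, erythroid markers reached 3 UMIs in 42 of 47 members, plasma cell markers in 34 and chief cell markers in 13. Chief cell markers reached 64562 CPM in 1 polyp member. Mast cells also use Tph1 in the mouse, and the 8 mast cell markers gave at least 3 UMIs in 6 polyp members, 3 when Kit was not counted, and in no WT member.

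Transcripts typical of other cells of the tissue were found in every member. The 6 acinar (digestive enzyme) genes summed to 4654 CPM in WT members and to 8623 CPM in the T cell barcodes of the same library. The gland mucous genes, Tff2 among them, summed to 39411 CPM in polyp members and 18770 CPM in polyp T cell barcodes, and the surface mucous genes to 15316 and 10085 CPM. Levels of such genes in the members are given beside those of T cell barcodes, and the part that free RNA has in them was not tested.

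The WT members held a median of 7009 UMIs, from 750 to 15758, and the polyp members a median of 5762, from 977 to 36437. The polyp range was wider at the top, and 7 polyp members above 20000 UMIs supplied 46.3% of the 405118 UMIs summed over the group. The WT sum was 223475 UMIs. The median mitochondrial share was 5.04% in WT and 7.48% in polyp members. In the whole libraries, 64.9% of WT and 39.1% of polyp barcodes lay above the mitochondrial limit, and 44 barcode sequences occurred in both libraries, none of them a member.

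Tph1 transcripts were concentrated in these few cells. The WT members held 1013 of 1058 Tph1 UMIs in all kept barcodes (95.7%), and the polyp members 1204 of 1388 (86.7%). In the polyp library, 30 of 196 barcodes with mast cell markers held another 53 Tph1 UMIs, and the remaining barcodes outside the endocrine cells had a Tph1 UMI in 0.903% of cases (1.10% in WT). Just outside the Tph1 threshold, 8 WT and 12 polyp chromogranin barcodes held exactly 1 Tph1 UMI, and just inside it 2 WT and 3 polyp members held 2.

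Tph1 lies at chr7:46644641-46672537 on the minus strand of GRCm38 in the gene annotation, Sct at chr7:141278329-141279174 and Tac1 at chr6:7555061-7562978. Their promoter windows, 250 bases before to 50 after a start site, are shown because these genes define the serotonin cell and its peptides and carry the comparison between libraries. The sequences are RefSeq's for GRCm38.p6, 5′ to 3′ along the gene's strand. Tph1 has 2 listed starts, and capitals mark matches on either strand to TTTATNG (a homeodomain motif of the CDX kind), CAGCTG (an E box), TGACGTCA (a cyclic AMP response element) or GGGCGG (a GC box).
Tph1, chr7:46672488-46672787, minus strand: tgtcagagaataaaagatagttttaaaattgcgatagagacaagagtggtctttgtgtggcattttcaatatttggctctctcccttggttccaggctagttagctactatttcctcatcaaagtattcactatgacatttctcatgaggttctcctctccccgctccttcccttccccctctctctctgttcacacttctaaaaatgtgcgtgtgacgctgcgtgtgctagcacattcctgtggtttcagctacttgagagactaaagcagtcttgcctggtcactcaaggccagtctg
Tph1, chr7:46667328-46667627, minus strand: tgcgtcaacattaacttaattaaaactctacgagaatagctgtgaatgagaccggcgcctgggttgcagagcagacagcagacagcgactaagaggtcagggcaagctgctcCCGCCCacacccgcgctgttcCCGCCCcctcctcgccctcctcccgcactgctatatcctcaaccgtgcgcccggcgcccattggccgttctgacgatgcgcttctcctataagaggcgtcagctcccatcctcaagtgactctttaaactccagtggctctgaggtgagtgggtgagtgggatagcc
Sct, chr7:141279084-141279383, minus strand: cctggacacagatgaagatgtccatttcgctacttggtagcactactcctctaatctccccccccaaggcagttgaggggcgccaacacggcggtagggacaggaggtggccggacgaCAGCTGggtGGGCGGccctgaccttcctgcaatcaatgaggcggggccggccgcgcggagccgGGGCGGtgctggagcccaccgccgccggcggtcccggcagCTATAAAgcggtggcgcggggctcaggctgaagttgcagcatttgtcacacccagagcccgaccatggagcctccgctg
Tac1, chr6:7554811-7555110, plus strand: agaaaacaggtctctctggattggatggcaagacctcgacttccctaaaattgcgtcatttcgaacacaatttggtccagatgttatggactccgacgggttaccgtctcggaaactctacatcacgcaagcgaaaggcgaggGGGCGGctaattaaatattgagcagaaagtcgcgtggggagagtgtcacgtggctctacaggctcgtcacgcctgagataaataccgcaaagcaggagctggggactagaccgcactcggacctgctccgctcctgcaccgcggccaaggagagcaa

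The second Tph1 window held 2 GC boxes and the first none. The Sct window held 2 GC boxes, 1 E box and 1 TTTATNG match, which reads CTATAAA on this strand, and the Tac1 window held 1 GC box. That Sct match holds the letters TATAAA, so the pattern alone does not mark it as a CDX-kind site. Of all 32851 promoter windows in the table, 10.9% held TTTATNG, 16.3% CAGCTG, 1.79% TGACGTCA and 35.7% GGGCGG, so each match is a description of letters and not of a bound site. The 3′ reads do not tell which Tph1 start was used.

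The share of chromogranin barcodes that fulfilled the rule differed between the libraries, and serotonin itself was not measured. Members were 57.4% of the 54 chromogranin barcodes in WT (43.2% to 70.8%) and 16.2% of the 291 in the polyp library (12.1% to 20.9%). In the polyp library 14 chromogranin barcodes outside the members held 50 Tph1 UMIs, and 2 barcodes with 2 or more were out by Gast or Ghrl. The other 244 polyp chromogranin barcodes included 57 with Gast and 51 with Ghrl at 1% of UMIs or more (the gastrin and ghrelin genes, some barcodes holding both) and 141 with neither, while the 23 others of WT included 0, 2 and 21. As a share of all kept barcodes the members were 0.953% in WT (0.649% to 1.35%) and 0.556% in the polyp library (0.408% to 0.738%), and these intervals overlap. Of the epithelial barcodes, defined by Epcam or chromogranin UMIs, they were 3.43% in WT (2.34% to 4.83%) and 1.15% in the polyp library (0.844% to 1.52%), and these do not. The part that cell yield from digestion has in these shares was not tested.

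The genes that chose the members varied widely among them. Tph1 ran from 130 to 13284 CPM in WT members with a median of 4036 CPM, and from 68.2 to 28563 CPM in polyp members with a median of 2059 CPM. The ranges overlapped over most of their length, and the single highest Tph1 level was in a polyp member. Summed over members, Tph1 was 4533 CPM (4258 to 4821) in WT and 2972 CPM (2806 to 3145) in the polyp library, a level 1.53-fold lower (1.40 to 1.66). Chga was 2.13-fold lower (2.01 to 2.26) and Chgb went from 33990 CPM to 14532 CPM, or 2.34-fold lower (2.26 to 2.42). These summed folds depended on the 7 polyp members above 20000 UMIs. Without them the fold lower was 1.06 for Tph1 (0.973 to 1.16), 1.32 for Chga (1.24 to 1.40) and 1.74 for Chgb (1.68 to 1.81).

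**Figure D1:**
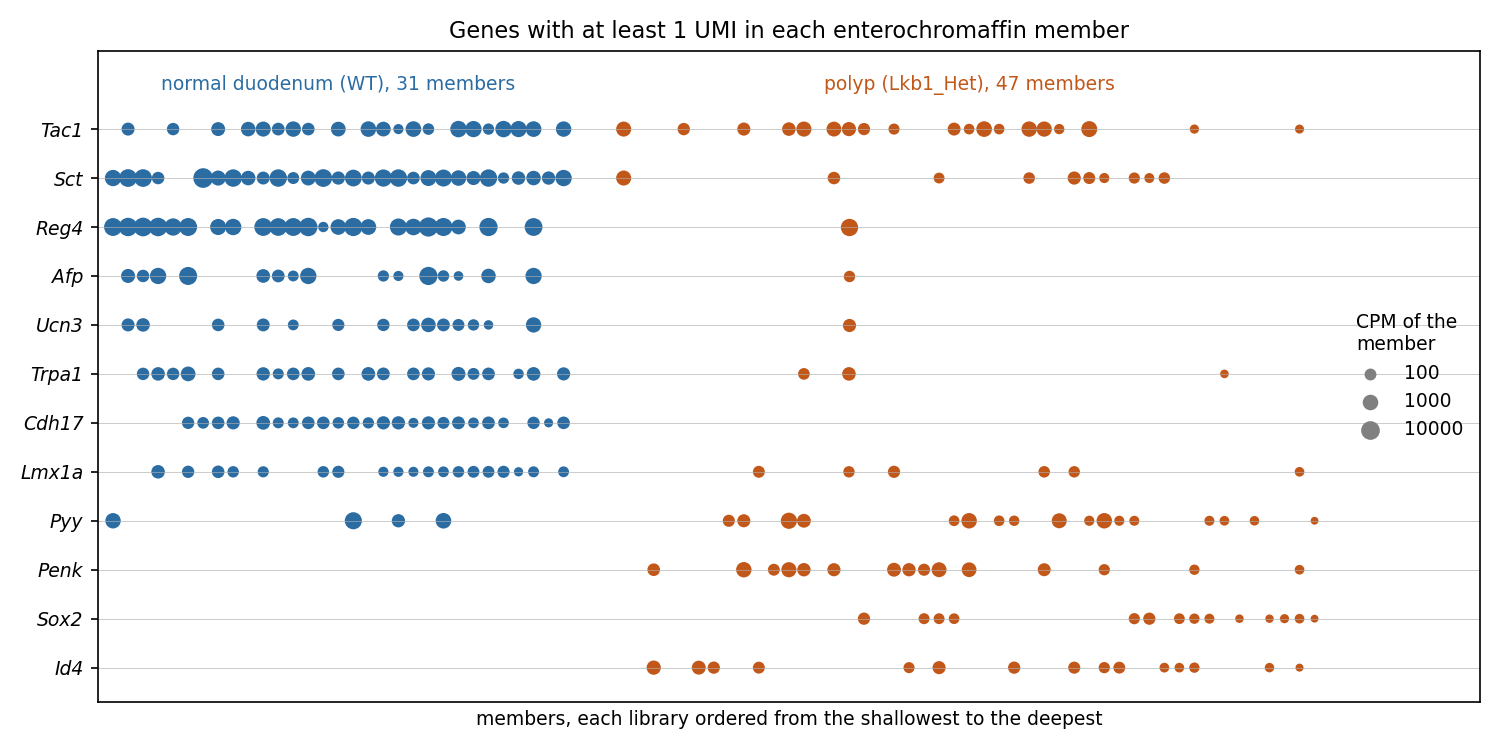
Members of each library along the x axis, ordered from the shallowest to the deepest, with 31 WT members in blue on the left and 47 polyp members in orange on the right. A dot stands for at least 1 UMI of the gene on the y axis and its size for the CPM in that member. Sct, Reg4 and Trpa1 fill the WT side and are in 10, 1 and 3 polyp members, whereas Penk, Sox2 and Id4 have no dot on the WT side.

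A gene was called past 2-fold when the sums differed by at least 2 times and held at least 20 UMIs together, and a sum of 0 was set to a floor of 3 UMIs. In the comparison of polyp with WT members, 644 of 4366 genes (14.8%) were past 2-fold higher in the polyp library and 689 (15.8%) past 2-fold lower (30.5% in all), with a median log2 ratio over these genes of -0.01. Counts from the gene lists below are to be read against these shares, and a gene with few UMIs in 1 sum could reach 20 UMIs only through the sum where it was high, so for such genes the call was largely set by the filter. "Deep barcodes" below are those above 20000 UMIs, all of them polyp members in this comparison. No p-value was computed, because each group was 1 library.

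The serotonin pathway genes split by step. Of 11 serotonin genes with enough UMIs, 3 were past 2-fold lower, none higher, and the list's median log2 ratio was -0.10. With barcodes weighted equally, 2 were lower and 2 higher. Slc18a1, the vesicular monoamine carrier of endocrine cells, had a median of 428 CPM and a highest level of 1574 CPM in WT members, against 0 and 771 CPM in polyp members. It was detected in 25 of 31 WT and 18 of 47 polyp members, and its summed level went from 425 CPM (344 to 520) to 83.9 CPM (58.1 to 117), 5.07-fold lower (3.39 to 7.73). Slc18a2, the second vesicular carrier, was at 80.5 CPM in WT and 93.8 CPM in polyp members, a ratio of 1.17 (0.649 to 2.17), and its log2 ratio moved from 0.22 to 0.999 without the deep barcodes.

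Ddc, the decarboxylase that makes serotonin, was 2.48-fold lower (1.94 to 3.19), from 698 to 281 CPM, and it was no longer past 2-fold without the barcodes above 20000 UMIs (log2 ratio -0.52). T cell barcodes held a Ddc UMI in 12.2% of cases in WT and 0.842% in the polyp library. The part that RNA from other cells has in the Ddc difference was not tested. Slc38a11, an amino acid carrier, was 5.67-fold lower (2.48 to 14.5), with 16 WT and 8 polyp members positive, and its log2 ratio was -1.80 without the deep barcodes. Gch1, which starts the synthesis of the biopterin cofactor of Tph1, had a ratio of 0.932 (0.690 to 1.27). Tph2, the neuronal hydroxylase, and Slc6a4, the plasma membrane serotonin carrier, had 0 UMIs in the members of both libraries, which allows levels of up to 13.4 CPM (WT) and 7.41 CPM (polyp).

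Among the gene lists, the peptide hormone list had the median log2 ratio of largest size, though all 19 measured regional genes were past 2-fold. Of its 9 measured genes, 8 were past 2-fold lower in polyp members and 1 higher, with a list median log2 ratio of -4.92. The 8 include Reg4 and Afp, which encode a lectin and a serum protein and not hormones, and a median without them was not computed. Afp, Ucn3, Cartpt and Penk held 3 or fewer UMIs in 1 of the sums, so their calls were largely set by the UMI minimum, and 15 of the 24 listed genes are outside this count. The counts were 7 and 1 without the deep barcodes.

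Sct, the secretin gene, had a median of 3045 CPM and a highest level of 144084 CPM in WT members, and 0 and 3071 CPM in polyp members. It was present in 29 of 31 WT and 10 of 47 polyp members, and summed levels of 8981 CPM (8592 to 9383) and 59.2 CPM (38.0 to 88.1) gave a level 152-fold lower (102 to 237). The polyp T cell barcodes held no Sct. Without the barcodes above 20000 UMIs, the log2 ratio of Sct moved from -7.24 to -6.35.

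Reg4, a secreted lectin that marks intestinal enterochromaffin cells, had a median of 14379 CPM and a highest level of 89692 CPM in WT members. In the polyp library 46 of 47 members had no Reg4 UMI and the last one had 67, so the 165 CPM summed over the group were from a single barcode. Against the WT sum of 17465 CPM, the level was 106-fold lower (83.0 to 137), and its log2 ratio moved from -6.72 to -5.82 without the deep barcodes.

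That polyp member, with 3689 UMIs in all, resembled the WT members in several genes at once. It held 6 Tac1, 3 Ucn3, 4 Trpa1, 1 Afp, 1 Cdx2 and 1 Lmx1a UMIs, and no Sct. It was picked after its values were seen, and it is described here as 1 barcode.

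Tac1, the precursor of substance P, ranged from 0 to 8972 CPM in WT members with a median of 623 CPM, and from 0 to 6049 CPM with a median of 0 in polyp members. It was detected in 21 of 31 WT and 19 of 47 polyp members, so the groups overlapped. The summed level was 3083 CPM (2857 to 3322) in WT and 427 CPM (366 to 496) in the polyp library, 7.22-fold lower (6.10 to 8.58). Its log2 ratio was -2.85 with all members and -1.97 without the barcodes above 20000 UMIs.

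Ucn3, a peptide of the urocortin family, was in 14 of 31 WT members, at up to 3708 CPM, and in 1 of 47 polyp members, where all 3 of its UMIs lay. Its levels were 492 and 7.41 CPM, which gave a 66.5-fold lower level (22.2 to 327), with a log2 ratio of -6.05 that was -5.16 without the deep barcodes. Afp, the fetal serum protein gene, was in 15 WT members with 388 of its 682 UMIs in 1 of them, and in 1 polyp member with 1 UMI. Cartpt, which encodes the CART peptide, had 48 of its 50 WT UMIs in 1 member and 0 UMIs in the polyp members, at least 30.2-fold lower.

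Pyy and Cck, hormones of other intestinal endocrine cells, were 2.70-fold (2.13 to 3.44) and 3.63-fold lower, and without the deep barcodes their log2 ratios were -0.60 and -1.17. The Pyy difference rested on few cells. In WT, 118 of 176 Pyy UMIs were in 1 of 4 positive members, while 17 polyp members were positive, and taking members with 1 or more Tph1 UMIs turned the log2 ratio from -1.44 to 0.04.

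Penk, the proenkephalin gene that encodes opioid peptides, was the hormone gene past 2-fold higher. It had 0 UMIs in WT members and was in 15 of 47 polyp members at up to 3951 CPM, with a summed level of 195 CPM (154 to 243), at least 14.5-fold higher. In the polyp library Penk was at 117 CPM in T cell barcodes, with a UMI in 6.11% of them, at 6.16 CPM in the other chromogranin barcodes and at 0.988 CPM in epithelium without chromogranin. The part that RNA from other cells has in the members' level was not tested.

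**Figure D2:**
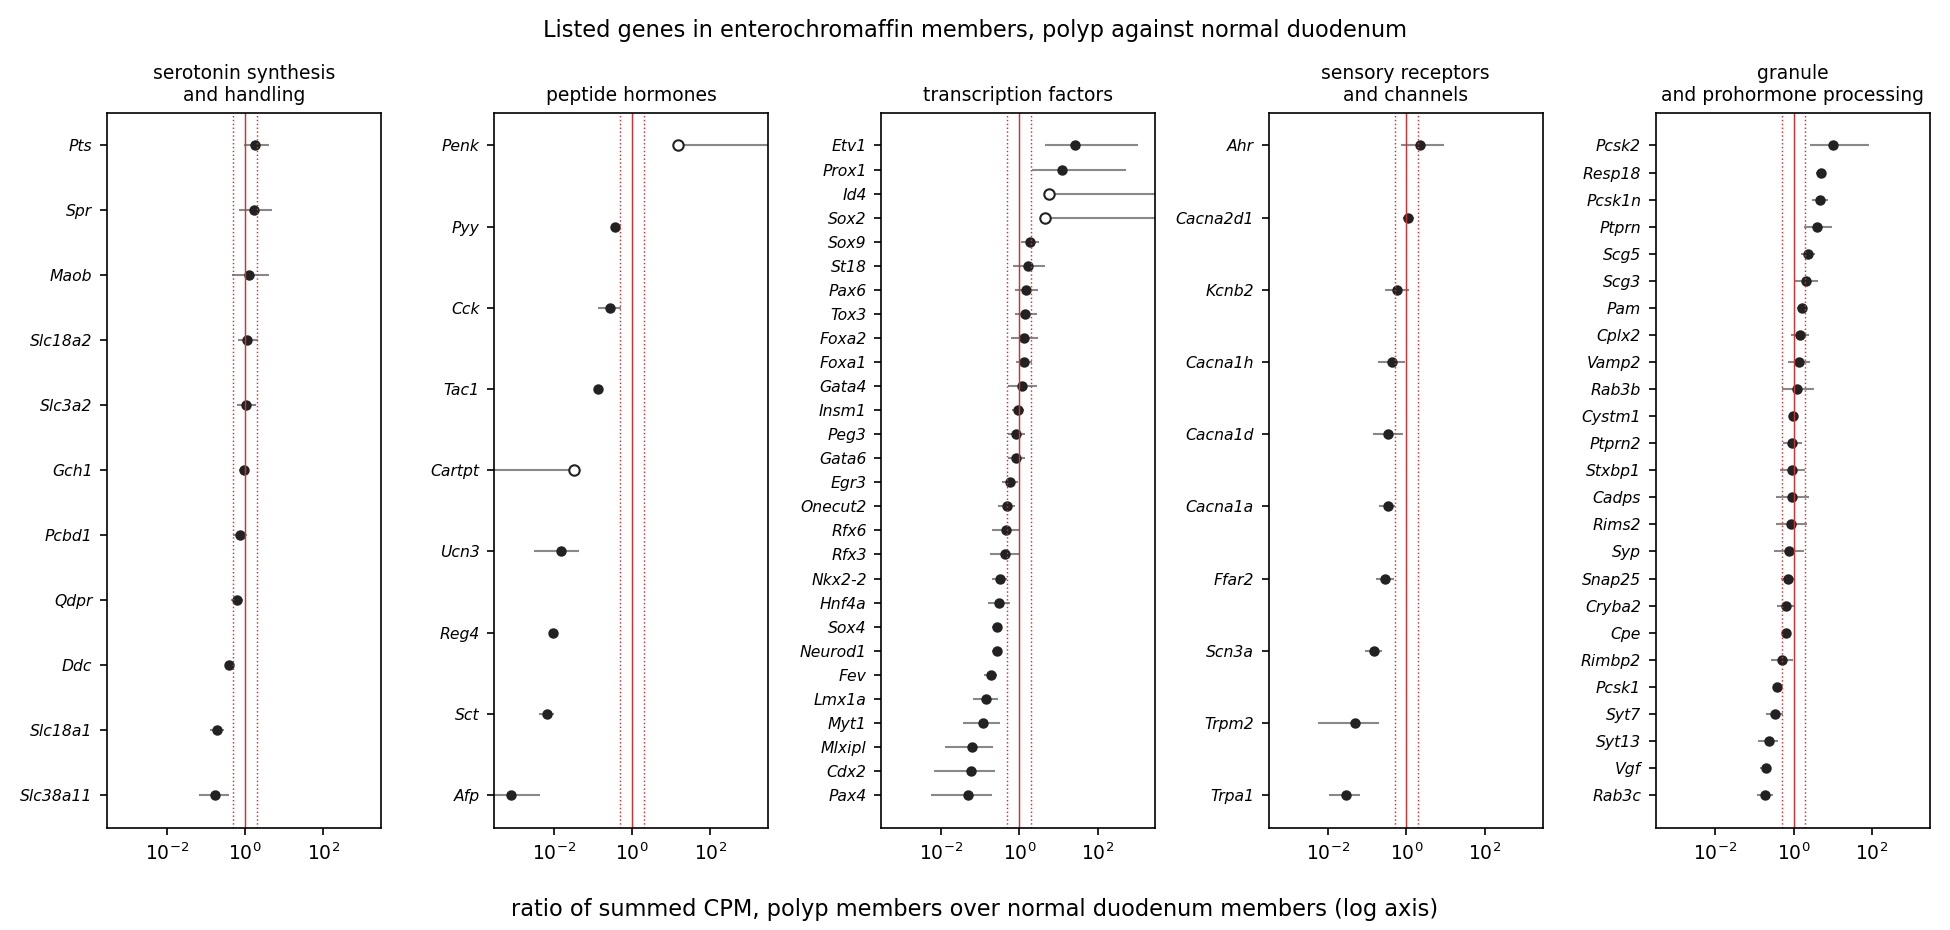
Ratio of summed CPM in polyp members to that in WT members on a log axis, for the genes of 5 lists with at least 20 UMIs over both sums. Dots are ratios with 95% counting intervals as lines, open dots are bounds set by a sum of 0, and the dotted lines mark 2-fold either way. Reg4, Sct and Afp lie farthest to the lower side of the hormone list, Trpa1 of the sensors, and Penk, Sox2 and Id4 are open dots on the higher side.

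Detection of Sct, Tac1 and Penk kept its order at equal depth. With each member thinned to 1000 UMIs, which left out 1 member in each library, Sct was found in 76.7% of 30 WT and 2.17% of 46 polyp members, and Tac1 in 50.0% and 21.7%. The unthinned shares for Tac1 were 67.7% and 40.4%. Penk was found in 0 of 30 WT members, which at this depth limits the share of members with a UMI to 11.6% (Clopper-Pearson), and in 19.6% of polyp members.

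Transcription factors of the endocrine lineage differed in both directions. Of 29 measured factors, 5 were past 2-fold higher in polyp members and 13 lower, with a list median log2 ratio of -0.27. Without the barcodes above 20000 UMIs the counts were 8 higher and 9 lower of 28.

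Sox2, a factor of stomach and foregut epithelium, and Id4, an inhibitor of helix-loop-helix factors, were at 0 UMIs in WT members. Sox2 was in 14 polyp members at 61.7 CPM (at least 4.60-fold higher) and Id4 in 15 at 76.5 CPM (at least 5.70-fold higher). The log2 bound for Id4 moved from 2.51 to 3.26 without the deep barcodes, and Sox2 then held too few UMIs for a value. Thinned to 1000 UMIs, Sox2 was found in 2.17% and Id4 in 4.35% of 46 polyp members. Each was then in 0 of 30 WT members, which limits the WT share to 11.6% (Clopper-Pearson). Both polyp shares lie below that limit, so detection at equal depth did not separate the libraries for either factor.

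Etv1 and Prox1, an ETS and a homeobox factor, each had 1 UMI in WT members. Etv1 was at 121 CPM in polyp members, a ratio of 27.0 (4.63 to 1089), and Prox1 at 56.8 CPM, a ratio of 12.7 (2.06 to 523), and the log2 ratio of Prox1 moved from 3.67 to 4.499 without the deep barcodes. The intervals are wide because of the single WT counts.

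The lower factors included those known from serotonin cells. Lmx1a, which lies downstream of Nkx2-2 in enterochromaffin cells, was in 19 of 31 WT and 6 of 47 polyp members and was 6.92-fold lower (3.50 to 14.9). Fev, a factor of serotonin neurons and gut endocrine precursors, was in 22 WT and 25 polyp members, and its level went from 452 to 83.9 CPM, 5.39-fold lower (3.62 to 8.20). Pax4, an endocrine lineage factor, was 19.9-fold lower (4.90 to 175), and Neurod1 3.82-fold lower (2.89 to 5.08). Without the deep barcodes the log2 ratio moved from -2.43 to -1.76 for Fev, from -4.32 to -3.42 for Pax4 and from -1.93 to -1.28 for Neurod1.

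Cdx2, the homeobox factor that sets intestinal identity, was in 11 of 31 WT and 2 of 47 polyp members and was 17.2-fold lower (4.16 to 153), with a log2 ratio of -4.11 that was -3.21 without the deep barcodes. Nkx2-2 and Hnf4a were 3.11-fold and 3.31-fold lower, and Nkx2-2 was not past 2-fold without the barcodes above 20000 UMIs (log2 ratio -0.87). The early endocrine factor Insm1 was at 246 CPM in WT and 230 CPM in polyp members, Pax6 at 58.2 and 86.4 CPM, and Foxa2 at 49.2 and 64.2 CPM, all within 2-fold. Without the deep barcodes their log2 ratios were 0.72, 1.20 and 1.10, so Pax6 and Foxa2 were then past 2-fold higher and Insm1 changed sign.

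The sensors by which enterochromaffin cells detect luminal and chemical signals were mostly lower. Of 10 measured receptors and channels, 7 were past 2-fold lower in polyp members and 1 higher, with a list median log2 ratio of -1.57. The counts without barcodes above 20000 UMIs were 4 and 0 of 9.

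Trpa1, the irritant-gated cation channel at chr1:14872644-14918862, had a median of 525 CPM and a highest level of 2382 CPM in WT members, and 0 and 1084 CPM in polyp members. It was in 20 of 31 WT and 3 of 47 polyp members, and summed levels of 515 CPM (425 to 618) and 14.8 CPM (5.44 to 32.2) gave a 34.7-fold lower level (15.5 to 96.6). Its log2 ratio moved from -5.12 to -4.48 without the barcodes above 20000 UMIs. Thinned to 1000 UMIs, 36.7% of WT and 2.17% of polyp members held it.

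Scn3a, a voltage-gated sodium channel subunit, was 6.73-fold lower, Ffar2, a receptor of short-chain fatty acids, 3.48-fold, and Trpm2, a cation channel, 20.9-fold. Without the deep barcodes the log2 ratio moved from -2.75 to -1.92 for Scn3a, from -1.80 to -1.02 for Ffar2 and from -4.38 to -3.48 for Trpm2. Cacna1a, the pore subunit of a P/Q-type calcium channel, was 3.04-fold lower, and not past 2-fold without the barcodes above 20000 UMIs (log2 ratio -0.75). The calcium channel subunit Cacna2d1 was at 255 and 281 CPM. Ahr, the aryl hydrocarbon receptor, was the sensor past 2-fold higher, from 17.9 to 39.5 CPM, but the interval of its ratio of 2.21 ran from 0.712 to 9.07 and T cell barcodes held it at 68.1 CPM (WT) and 82.8 CPM (polyp). Piezo2, a stretch-gated channel, had 0 UMIs in the members of both libraries.

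Genes of the granule and of prohormone processing were split. Of 25 measured genes, 6 were past 2-fold higher in polyp members and 5 lower, with a list median log2 ratio of -0.14. Without barcodes above 20000 UMIs, 10 were higher and 4 lower of 23.

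Resp18, a granule protein of endocrine cells, went from 224 to 1103 CPM, 4.93-fold higher (3.68 to 6.75), and Pcsk1n, an inhibitor of the convertase Pcsk1, was 4.64-fold higher. Pcsk1 itself was 2.72-fold lower, from 779 to 286 CPM, while the other prohormone convertase, Pcsk2, went from 8.95 to 88.9 CPM, 9.93-fold higher (2.56 to 85.1). Pcsk1 was not past 2-fold without the barcodes above 20000 UMIs (log2 ratio -0.77). Ptprn, a granule membrane protein, and Scg5, a chaperone of Pcsk2, were 3.93-fold and 2.32-fold higher, and the neurosecretory protein gene Vgf was 5.17-fold lower. Without the deep barcodes the higher genes were farther from WT, with log2 ratios of 2.95 for Resp18, 3.01 for Pcsk1n, 4.13 for Pcsk2, 2.59 for Ptprn and 1.91 for Scg5, and Vgf was at -1.53.

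Genes that mark the region of the gut separated the members of the libraries. Of 19 measured regional genes, 11 were past 2-fold lower and 8 higher in polyp members, counts that were the same without the barcodes above 20000 UMIs. Cdh17, an intestinal cadherin, was in 24 of 31 WT members at 412 CPM and in none of 47 polyp members, at least 55.6-fold lower. Cldn18, a stomach claudin, was at 0 UMIs in WT members and in 36 of 47 polyp members at 306 CPM, at least 22.8-fold higher, against 40.5 CPM in polyp T cell barcodes.

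The intestinal genes Cdhr5, Lgals2, Tff3 and Fabp1 were also past 2-fold lower. Fabp1, a fatty acid binding protein of enterocytes, went from 582 to 2.47 CPM. The 5 enterocyte markers, Fabp1 among them, summed to 1517 CPM in WT and 59.2 CPM in polyp members, and to 563 and 14.1 CPM in T cell barcodes. The 5 goblet markers, Tff3 among them, summed to 1486 and 83.9 CPM in members, and to 733 and 72.0 CPM in T cell barcodes. Both sums were thus also lower in polyp T cell barcodes, and the part of free RNA was not tested. The stomach genes Tff1, Tff2, Gkn1 and Gkn2 were past 2-fold higher, and each was found in 47 of 47 polyp members. In polyp T cell barcodes these 4 were at 5816, 18496, 2304 and 1959 CPM, against 8906, 38878, 3244 and 3162 CPM in polyp members, and 63.4% of the members' Gkn1 UMIs came from 1 barcode. Their log2 ratios were 7.15, 6.41, 6.92 and 5.88, and without the deep barcodes 5.69, 5.44, 5.77 and 4.53.

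A rule that ranked genes by the near bound of their interval also named Clu, Spp1 and Tspan8 among the higher genes. Clu, a secreted chaperone, went from 17.9 to 4300 CPM and was in 47 of 47 polyp members, against 889 CPM in polyp T cell barcodes, with a log2 ratio of 7.91 that was 7.11 without the deep barcodes. Spp1, the osteopontin gene, was at 0 UMIs in WT and 652 CPM in polyp members (T cell barcodes 138 CPM), and Tspan8, a tetraspanin, was 189-fold higher. Among the lower genes were Rasd1, a small GTPase gene, 126-fold lower, Tpbg, a membrane glycoprotein gene, 93.8-fold lower, and the adhesion receptor Adgrg4, at least 52.6-fold lower.

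Acute phase and antigen presentation genes differed in opposite directions. Of 12 measured regenerative and acute phase genes, 7 were past 2-fold higher in polyp members, with Reg3b, an antibacterial lectin, from 4.47 to 1303 CPM, against 612 CPM in polyp T cell barcodes. S100a6, another of the 7, had a log2 ratio of 1.74 that moved to 0.03 without the barcodes above 20000 UMIs. Of 7 measured MHC class I genes, 5 were past 2-fold lower, B2m from 703 to 193 CPM among them, and both measured MHC class II genes were lower. The class I count was 3 of 7 without the deep barcodes.

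Stk11 itself, the gene with a floxed copy in the polyp mice, was at 89.5 CPM in WT and 79.0 CPM in polyp members, a ratio of 0.883 (0.490 to 1.63). The Cre is driven by Myh11, and its transcript was at 0 UMIs in the members, so this value is no check of the deletion. Of 6 measured genes of the LKB1 complex and its downstream kinases, Sik1, a salt-inducible kinase, was 6.22-fold lower, Cab39, a scaffold of the complex, 2.32-fold lower and Prkab1, an AMPK subunit, past 2-fold higher. Prkab1 held 3 or fewer UMIs in 1 of the sums, so its call was largely set by the UMI minimum. Without the barcodes above 20000 UMIs, 2 of 5 genes of this list were lower and 0 higher. Of 9 measured CREB targets, 5 were past 2-fold lower and none higher, and 2 were without the barcodes above 20000 UMIs.

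Of 7 measured BMP response genes and receptors, 2 were past 2-fold lower and none higher. Id2 was 3.40-fold lower, from 2108 to 620 CPM, and Id3 2.62-fold lower, while Id1 went from 1817 to 980 CPM, within 2-fold. Without the deep barcodes Id1 was also past 2-fold lower (log2 ratio -1.08), and the count was 3 of 6. Receptor and Smad genes of the list, such as Bmpr1a and Smad4, were within 2-fold.

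Among listed and named genes with at least 20 UMIs, 99 were past 2-fold lower in polyp members and 61 higher, and 75 and 50 of them had a promoter window. TTTATNG was in 19 of the 75 (25.3%) and 5 of the 50 (10%), against 10.9% of all windows and 19.4% of the 180 windows of all listed and named genes. Matches that hold the letters TATAAA were not counted apart, so these shares are not shares of CDX-kind sites. TGACGTCA was in 6 of the 75 (8%), those of Btg2, Cartpt, Chgb, Cldn7, Dusp1 and Pcsk1, and in none of the 50. It was in 10 of the 180 (5.56%), and Chgb is a gene that chose the members. CAGCTG was in 26.7% and 14%, against 23.9% of the 180, and GGGCGG in 49.3% and 42%, against 56.1%.

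Against the other chromogranin barcodes of the same library, the WT members had higher levels of several serotonin, sensor and peptide genes. Of 3219 genes, 728 (22.6%) were past 2-fold higher in members and 569 (17.7%) lower, 40.3% in all. The other WT chromogranin barcodes were 23 with a median of 1502 UMIs, and 5 of them above 20000 UMIs held 67.9% of their sum, so most of the folds below moved without those 5.

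Of 10 measured serotonin genes, 5 were past 2-fold higher in WT members (4 of 7 without barcodes above 20000 UMIs). Slc18a1 was at 425 CPM in members and 32.4 CPM in the others, 13.1-fold higher, and Ddc was 3.21-fold and Gch1 5.29-fold higher. Without barcodes above 20000 UMIs the log2 ratio moved from 3.72 to 2.08 for Slc18a1, from 2.40 to 1.14 for Gch1 and from 1.68 to 0.84 for Ddc. The monoamine oxidase gene Maoa was 12.4-fold lower.

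Of 47 listed sensors 7 held 20 UMIs, and these were past 2-fold higher in WT members, 4 of them without barcodes above 20000 UMIs and 6 with barcodes weighted equally, when 1 was lower. Trpa1, Cacna2d1 and Trpm2 had 3 or fewer UMIs in the others, so the minimum largely set their calls. Trpa1 was 111-fold higher, with an interval from 19.6 to 4435 set by 1 UMI in the others, and Scn3a and Cacna2d1 were 18.9-fold and 18.4-fold higher. Of 9 measured genes of the hormone list, 7 were higher, Reg4 and Afp among them. Tac1 was 74.1-fold higher (38.8 to 163), Reg4 61.9-fold, Sct at 8981 against 693 CPM, and Ucn3 at least 35.5-fold, while Gip, the hormone of K cells, was 1302-fold lower (360 to 10761) and Cck, that of I cells, 4.55-fold lower. Without barcodes above 20000 UMIs the log2 ratio moved from 6.21 to 4.57 for Tac1, from 5.95 to 4.31 for Reg4, from 3.70 to 2.08 for Sct, from 6.80 to 5.16 for Trpa1, from -10.35 to -11.99 for Gip and from -2.18 to -3.82 for Cck.

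Fev was 9.78-fold and Lmx1a at least 13.6-fold higher in WT members than in the other chromogranin barcodes, and Isl1, a factor of several other endocrine cells, was 13.4-fold lower. Their log2 ratios were 1.65, 2.12 and -5.39 without barcodes above 20000 UMIs. Of 16 immediate-early and heat shock genes, 15 were measured and 14 were past 2-fold higher in members (10 without barcodes above 20000 UMIs, and 7 with barcodes weighted equally). Genes of this list respond to tissue handling, and the part of the digestion was not tested. The enterocyte gene Fabp1 was 16.0-fold lower in members, and its log2 ratio moved from -4.00 to -0.22 without the barcodes above 20000 UMIs, since 3 of the other barcodes held at least 100 Fabp1 UMIs.

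In the polyp library, members were compared with 244 other chromogranin barcodes. The median gene was 1.14-fold higher in members (log2 ratio 0.18), so ratios are given relative to it. Of 8456 genes, 376 (4.45%) were then past 2-fold higher and 767 (9.07%) lower, and on the total scale 643 (7.6%) were higher and 580 (6.86%) lower (14.5% in all). The comparator holds gastrin and ghrelin cells, which the rule excluded from the members.

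Slc18a1 was 7.20-fold higher in polyp members than in the others (4.03 to 13.2), Ddc 2.91-fold and Slc18a2 2.18-fold, and 4 of 13 measured serotonin genes were past 2-fold higher. Tac1 was 14.4-fold higher, with 173 UMIs in members and 51 in the others, Sct 7.82-fold and Penk 27.9-fold (15.1 to 56.3). Id4 was 4.10-fold and Sox2 3.78-fold higher in summed level. Thinned to equal depth, Id4 was found in 4.35% of 46 members (0.531% to 14.8%) and 0.851% of 235 others (0.103% to 3.04%). Sox2 was found in 2.17% of these members (0.0550% to 11.5%) and 1.28% of these others (0.264% to 3.69%). The intervals overlap, so detection at equal depth did not separate members from the others for either factor. Lmx1a had 11 UMIs in members and 1 in the others.

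Hormones of other endocrine cells were lower in polyp members. Sst, the somatostatin gene, was 712-fold lower (197 to 5879), Pyy 106-fold (88.7 to 128), Gip 229-fold and Cck 13.5-fold. The factor Isl1, of several other endocrine cells, was 24.4-fold lower. Of 16 measured sensors, 1 was past 2-fold higher in polyp members and 2 were lower. These counts depended on the setting. Without barcodes above 20000 UMIs, 5 were higher and 4 lower of 15, and with barcodes weighted equally 4 were higher and 3 lower of 16.

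**Figure D3:**
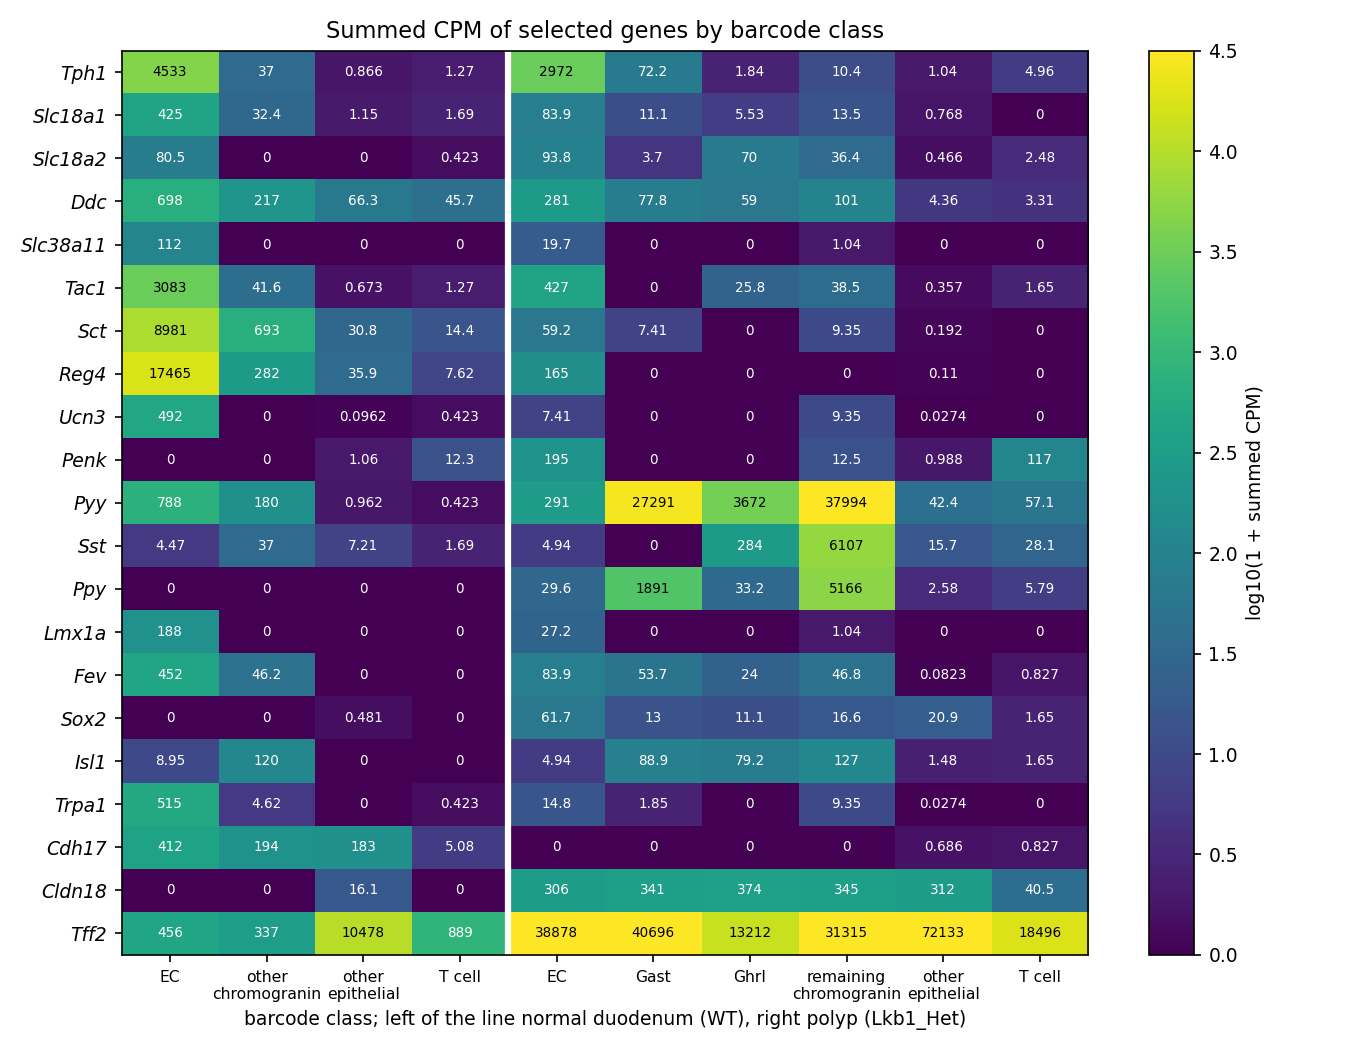
Summed CPM of selected genes, written in each cell and coloured on a log10(1 + CPM) scale, by class of barcode (EC, the members), with WT classes left of the white line and polyp classes right of it. Sct is at 8981 CPM in WT members and 59.2 CPM in polyp members, Penk is at 195 CPM in polyp members and 117 CPM in polyp T cell barcodes, and Tff2 is at 13212 CPM or more in each polyp class.

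Vim, an intermediate filament gene, was higher in members of both libraries, at least 59.4-fold in WT and 8.47-fold in the polyp library. Nptx2, a neuronal pentraxin gene, was 6.89-fold and Igfbp7, a secreted binding protein gene, 4.67-fold higher in polyp members. The dividing cell genes Pclaf, Birc5 and Ube2c were also past 2-fold higher, but 4 polyp members and no WT member held at least 3 UMIs of the cycling markers Mki67, Top2a, Birc5 and Cdk1, and 23 of 43 Ube2c UMIs were in 1 polyp member.

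The genes whose levels over chromogranin barcodes were most like that of Tph1 were taken by Pearson correlation after thinning each barcode to 1000 UMIs. Over 43 WT barcodes they were led by Id2 (r = 0.72), Neat1 (0.59), Fos (0.58), Pcsk1 (0.58) and Fosb (0.58), with Reg4 at 0.56. Over 281 polyp barcodes they were led by Calm3 (0.32), the plasma cell gene Igha (0.30), Snap25 (0.29) and Pcsk1 (0.26). These values are descriptions over barcodes that share a library, and the polyp ones are weak. Pcsk1 was among the first 10 in both libraries.

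Within the polyp members, those rich in Tac1 differed in other genes from those without it. There were 10 members with at least 3 Tac1 UMIs and 28 with none. The 10 Tac1 members, with a median of 4654.5 UMIs, had Chgb at 34384 CPM and Fev at 299 CPM, against 12401 and 53.5 CPM in the 28 members without Tac1, whose median was 6834.5 UMIs. Penk was at 427 CPM in the Tac1 members and 85.7 CPM in those without. No member above 20000 UMIs was among the 10, and most of them were among the 28, the deepest with 36437 UMIs. The summed levels of the 28, here and below, thus lean on these deep barcodes, and levels without them were not computed.

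Other genes were at lower summed levels in the polyp members with Tac1. Slc18a2 was at 21.3 against 107 CPM, from 1 and 30 UMIs, and the interval of its ratio of 0.199 spans no difference (0.00489 to 1.20). Chga was at 2241 against 5237 CPM. Id4 was at 0 UMIs against 100.0 CPM, which held 28 UMIs, at least 1.56-fold lower. Pgc, the pepsinogen gene of chief cells, was at 128 CPM against 5897 CPM, and 82.3% of all its member UMIs were in 1 barcode. The levels of the 28 members without Tac1 thus include that barcode.

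**Figure D4:**
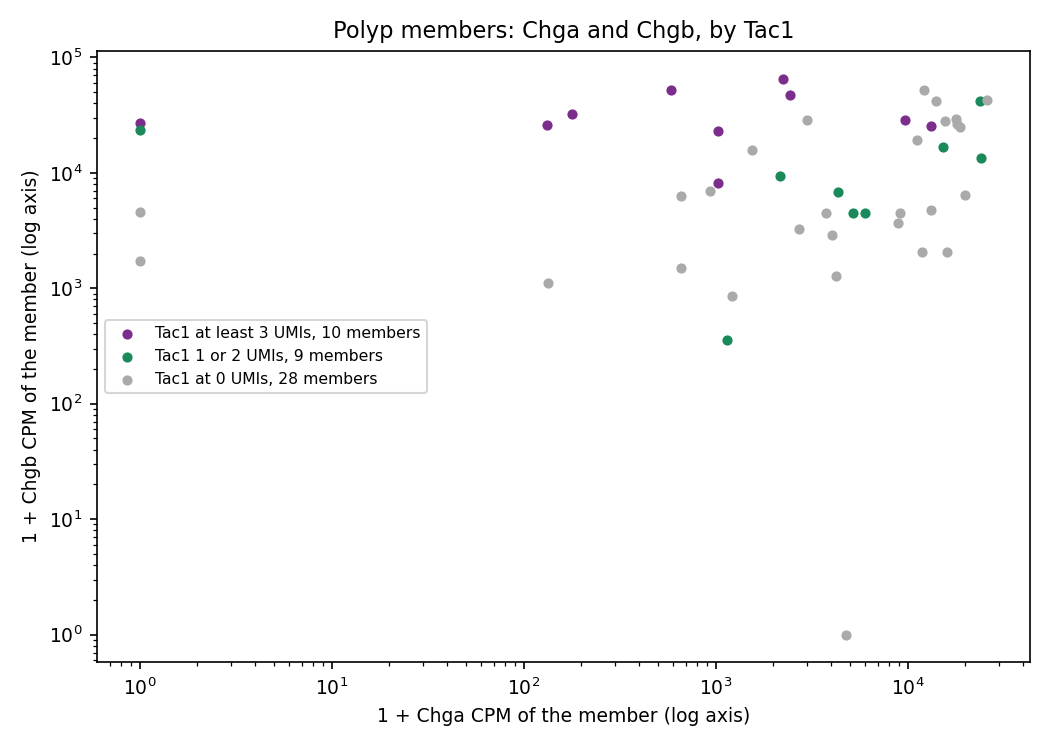
Chgb against Chga as 1 + CPM on log axes, for the 47 polyp members. Each point is 1 member, coloured by its Tac1 UMIs, and the members with at least 3 Tac1 UMIs lie, apart from 1, above the median polyp member on the Chgb axis (9446 CPM).

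Within the WT members, 18 had at least 3 Tac1 UMIs and 10 had none. Those with Tac1 held Sct at 5102 CPM against 18615 CPM without it, or 10873 CPM without the barcode that held 453 of the 1007 Sct UMIs there, and both genes were found in 20 of 31 members. Trpa1 was at 670 against 148 CPM and Ucn3 at 632 against 166 CPM, and 8 members held at least 3 UMIs of both Tac1 and Ucn3. Pyy was at 0 UMIs in members with Tac1 and 3124 CPM in those without. Median depth differed between these members, at 8130.5 and 3395.5 UMIs.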

How the data were processed

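Tissue was cut to pieces of about 0.5 mm3 and digested with 0.2% collagenase at 37 °C for about 40 min, per the labels' protocols, and libraries were 10x 3′. The deposited matrices hold raw UMI counts for 32285 genes, aligned to mm10, and no normalization is recorded. The submitters' processing notes name Cell Ranger 3.0.0 and the matrix header version 5.0.0, a difference left as it stands. Counts were summed over the barcodes of a class and divided by the class total (CPM). Counting intervals were exact Poisson for CPM, exact conditional binomial for ratios and Clopper-Pearson for shares (Python 3.11.15, scipy 1.17.1). UMI counts collapse PCR copies, and free RNA was not subtracted. Doublets were left in the sums, and the 85 WT and 573 polyp barcodes with the highest Scrublet scores (scanpy 1.11.5) were left out as an alternative, since the automatic threshold marked 0 barcodes in either library.

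The kept barcodes held 21894958 UMIs in WT and 53673997 in the polyp library. The mitochondrial share was taken over 13 genes. Genes were named where they were in a list or, per comparison, among the 15 higher and 10 lower genes ranked by the near bound of the interval, with at least 50 UMIs and detection in at least 10% of barcodes. The members and all lists were chosen with earlier results of these data known. Alternatives changed the thresholds, the depth, the comparator, the scaling and the count minimum, and the ratio and interval steps were tested on simulated counts. Gene positions are from GENCODE on GRCm38. Samples were grouped by their genotype label, and no test between the 2 libraries was made. Some listed genes are counted with their lists and not reported here by name.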

Additional observations from a re-analysis of the deposited data

Results flagged for a closer look

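For 17 genes the ratio of members to other chromogranin barcodes was past 2-fold in opposite directions in the 2 libraries; the difference between libraries was not tested. The differences below are log2 ratios in WT minus those in the polyp library. Higher in WT members and lower in polyp members were Pyy (8.86), Rasd1 (8.59), Hspb1 (7.01), Gpx3 (6.33), Resp18 (5.02), Egr3 (4.91), Gem (4.52), Syt13 (3.71), Hbb-bs (3.66), Cldn4 (3.62), Cela2a (3.58), Peg3 (3.47), Pcsk1n (2.99) and Atf3 (2.20). Lower in WT members and higher in polyp members were Fabp2 (-7.11), Rbp2 (-5.03) and Slc25a11 (-3.07). The comparators differ between the libraries: the 23 WT ones include 3 with at least 100 Fabp1 UMIs, and the 244 polyp ones include cells rich in Pyy, so Pyy was at 180 CPM in the WT comparator and 27256 CPM in the polyp comparator. Cela2a is an acinar gene and Hbb-bs a globin gene.

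Among barcodes above the mitochondrial limit, 4 of 4549 in WT and 5 of 3453 in the polyp library otherwise fulfilled the rule. They held 52 and 13 Tph1 UMIs, with mitochondrial shares from 29.6% to 71.0% and from 28.6% to 39.7%.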

How the results depend on the processing

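No paired analysis was possible because each group was 1 library. Of 6411 alternative values for 530 gene ratios, 341 changed sign, 24 of them for ratios past 2-fold. These 24 follow. In WT members against other chromogranin barcodes, without barcodes above 20000 UMIs (an alternative chosen after seeing the data) the log2 ratio was -0.0682 for Atf3, -0.57 for Cacna1a, 0.0788 for Cd74, -0.0307 for Cpe, -0.46 for Cplx2, -0.10 for Kcnb2, -0.62 for Myt1, -0.23 for Pax4, -0.52 for Peg3, 0.81 for S100a10 and -0.0686 for Sox4. With barcodes weighted equally it was -1.29 for Cacna1a, -0.11 for Gem, 0.46 for Hnf4g, -0.35 for Pcsk1n, -2.14 for Pyy and -0.54 for Sik1, with thinning -0.0332 for Atf3, and at a 10% mitochondrial limit -0.18 for Peg3. In the polyp library it was 0.22 for Gem, 0.46 for Nr4a2 and 0.35 for Resp18 after a lineage filter, and 0.58 for Syt13 with thinning. Between polyp and WT members, Pyy turned to 0.0352 with Tph1 of at least 1 UMI. The causes were not tested.

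The members' share was 72.2% in WT at 1 Tph1 UMI and 12.0% in the polyp library at 5. A lineage filter left no WT chromogranin barcode and gave no value there, while in the polyp library it left 69, with 11 members (15.9%). Of the called ratios, 62 of 105 in WT, 45 of 71 in the polyp library and 85 of 107 between libraries stayed past 2-fold under each setting that gave a value.

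Counts of genes past 2-fold higher and lower moved by over 1.5 times as follows. For WT (728 and 569) they were 460 and 375 at a 10% mitochondrial limit, 464 and 262 without barcodes above 20000 UMIs, 65 and 65 thinned to 1000 UMIs, 270 and 259 with 50 UMIs, 2936 and 2946 with no minimum, and 395 and 272 at 3-fold. For the polyp library, the higher count (643) was 276 with a lineage filter, 1061 without barcodes above 20000 UMIs, 180 thinned, 1111 with equal weights, 338 against others without Tph1, Gast or Ghrl, 210 with 50 UMIs, 4833 with no minimum, 144 at 3-fold and 376 scaled to the median gene. The lower count (580) was 197 with a lineage filter, 213 thinned, 241 with 50 UMIs and 266 at 3-fold. Between libraries (644 and 689) they were 84 and 88 thinned, 268 and 286 with 50 UMIs, 1685 and 3716 with no minimum, and 355 and 348 at 3-fold. Fewer UMIs and stricter limits leave fewer genes by construction, and a gene at 0 of 31 members can still be at 13.4 CPM.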
